A study of Homo sapiens with 42 samples.

Results

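Chromosome condensation, cohesion and DNA untangling were followed through 10 genes in A375 melanoma cells under 4 siRNAs and 4 treatments. The genes were the condensin core subunits SMC2 and SMC4, the condensin I subunits NCAPD2, NCAPG and NCAPH, the condensin II subunit NCAPG2, the cohesion regulators ESCO2 and SGO1, and the type II topoisomerases TOP2A and TOP2B. They are 10 of 19775 genes measured on the arrays, and the rule picked them by name and function, not by a threshold on their values. The choice was made with earlier results of these data known, so their counts beside shares of all genes are descriptions. Each gene was represented by the probe set that carries its symbol alone and has the highest mean log2 signal over all 42 arrays. A further 26 genes of condensin II, cohesin and its regulators, the other topoisomerases and SMC5/6 served as a pathway list beside them.

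Condensin is a ring-shaped ATPase complex that extrudes DNA loops and compacts chromosomes as cells enter mitosis. Condensin I and II share SMC2 and SMC4 and differ in their other subunits. Cohesin holds sister chromatids together from replication onwards. ESCO2 acetylates cohesin during S phase to establish this hold, and SGO1, a shugoshin, protects centromeric cohesin until the chromatids separate. Type II topoisomerases pass a DNA double strand through another to remove tangles. TOP2A is made mainly by proliferating cells and TOP2B by most cells, and anthracyclines such as daunorubicin trap both enzymes on DNA.

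Cells were transfected for 48 hours and then treated for 26 hours, 27000 cells per sample, and each of the 14 groups held 3 arrays. With siRNA against p53, cells received 650 nM MLN4924, 5 uM Nutlin, 100 nM daunorubicin or 0.065% DMSO. With siRNA against CDT1, a replication licensing factor, or BRCA1, a repair protein, they received 650 nM MLN4924 or 0.065% DMSO. With GL2, a control siRNA directed at firefly luciferase, they received all 4 treatments. The DMSO arrays of p53 and of GL2 siRNA formed a first and a second set of 3, which the labels tell apart by title alone. Averaged over both siRNAs, the sets differed in 113 genes (limma, none of them a member). A scale over these genes ran from 0 for the first to 1 for the second. On it, as follows from how the genes were picked, the first lay at -0.18 to 0.10 and the second at 0.93 to 1.13. The Nutlin and daunorubicin arrays, set against the first below, lay at -0.13 to 0.23. The MLN4924 arrays of p53 and GL2 siRNA cells lay at 0.18 to 0.42, and the DMSO arrays of CDT1 and BRCA1 siRNA at 0.44 to 0.75, each set against both. The MLN4924 arrays of CDT1 and BRCA1 siRNA cells lay at 0.12 to 0.24, below the DMSO arrays of the same siRNA. Positions thus differ between treatments under 1 siRNA, and the scale alone cannot assign drug arrays to a DMSO set. MLN4924 blocks the enzyme that activates NEDD8 and so inactivates the cullin-RING ubiquitin ligases. Nutlin releases p53 from MDM2. All groups come from A375 cells, 1 melanoma line with wild-type p53, with transient rather than stable depletion. Nothing in the labels tells whether the 3 replicates of a group were grown separately, and the p-values therefore cover the spread among these samples alone, possibly a technical one.

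Values are the log2 of the signal intensity, centred so that each array has the same median gene. CDT1 lay at 6.51 to 6.77 in CDT1 siRNA with DMSO, against 8.56 to 9.16 in both GL2 DMSO sets, and BRCA1 lay at 5.82 to 5.98 in BRCA1 siRNA with DMSO, against 8.52 to 8.95. The transcript that the p53 siRNA targets was not analysed here, and CDKN1A, the p53 target that encodes the inhibitor p21, lay at 6.48 to 7.57 in both p53 DMSO sets, against 9.01 to 9.25 in both GL2 DMSO sets. Both MLN4924 libraries numbered 3 of GL2 and BRCA1 siRNA stood against what their labels say. That labelled GL2 had BRCA1 at 4.70 where the others of its group had 7.95 and 8.24. That labelled BRCA1 siRNA had BRCA1 at 8.18 where the others had 4.93 and 5.28. In BRCA1 level each thus lay near the other's group, and whether the 2 libraries were exchanged was not tested. Replicate 1 of daunorubicin in p53 siRNA cells had 5′ to 3′ signal ratios of 0.0118 for ACTB and 0.0509 for GAPDH, outside the 0.649 to 0.945 and 0.988 to 1.19 of the other arrays. These 3 libraries stayed in the groups their labels give, and values without them are given where a result rests on them. Of the melanocyte lineage markers, MITF and SOX10 lay above the dim limit, a signal of 31.9 (log2 5), on all 42 arrays, S100B on 41, TYR on 21, PMEL and TYRP1 on 2 each and MLANA on 1. The leukocyte markers PTPRC, CD3D and CD14 lay under it on all 42. Of the epithelial markers, CDH1 exceeded it on 0 arrays, EPCAM on 5, KRT5 on 21 and KRT14 on 42, and of the fibroblast markers COL1A2 on 10 and COL1A1, DCN and LUM on 42.

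A gene was called where limma's adjusted p was under 0.05 over all genes and the change was at least 1.5-fold. Each change below is a log2 difference relative to the median gene, ± its standard error in the fit. At the deposited scaling the median change of all genes moves by -0.42 with MLN4924 in p53 siRNA cells, by -0.18 in GL2 and BRCA1 siRNA cells and by -0.11 in CDT1 siRNA cells. It moves by 0.17 with daunorubicin in GL2 cells, by 0.13 and 0.14 with Nutlin in GL2 and p53 siRNA cells, and by -0.23 where the MLN4924 changes of p53 and GL2 siRNA cells are compared. Where a share of all genes called is given for a direction that depends on this choice, the share at the deposited scaling stands beside it. The number of arrays limits the precision. In such bulk RNA, fewer cells in the stages that express a gene cannot be told apart from less RNA per cell.

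Promoter sequences are shown for TOP2A and TOP2B, the paralogs with and without a change below, for NCAPG, the condensin gene with the largest fitted fall, and for SGO1, whose window holds both motifs close together. The windows run from 250 bases before to 50 after an annotated start and were taken from RefSeq on GRCh38.p14. Capitals mark matches on either strand to the cell cycle genes homology region (CHR), searched as TTTGAA or TTCGAA, and to the CCAAT box, searched as CCAAT. Cell cycle genes of the late phases are often controlled through such elements. TOP2A is read from chr17:40417847-40418146 (minus strand), NCAPG from chr4:17810729-17811028 (plus strand), SGO1 from chr3:20186157-20186456 (minus strand), and TOP2B from its starts 1 and 2 at chr3:25664323-25664622 and chr3:25664858-25665157 (minus strand).
TOP2A: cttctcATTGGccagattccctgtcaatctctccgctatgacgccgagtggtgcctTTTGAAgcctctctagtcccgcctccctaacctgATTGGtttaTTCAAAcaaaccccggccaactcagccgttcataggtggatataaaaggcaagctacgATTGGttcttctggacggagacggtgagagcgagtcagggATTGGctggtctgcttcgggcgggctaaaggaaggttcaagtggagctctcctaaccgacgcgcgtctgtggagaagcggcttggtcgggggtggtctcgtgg
NCAPG: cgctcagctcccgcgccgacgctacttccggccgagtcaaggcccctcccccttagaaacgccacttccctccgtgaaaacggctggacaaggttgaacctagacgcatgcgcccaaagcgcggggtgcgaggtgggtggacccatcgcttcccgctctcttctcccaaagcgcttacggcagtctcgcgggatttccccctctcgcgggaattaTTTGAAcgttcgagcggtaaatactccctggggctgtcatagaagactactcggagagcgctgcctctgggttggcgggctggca
SGO1: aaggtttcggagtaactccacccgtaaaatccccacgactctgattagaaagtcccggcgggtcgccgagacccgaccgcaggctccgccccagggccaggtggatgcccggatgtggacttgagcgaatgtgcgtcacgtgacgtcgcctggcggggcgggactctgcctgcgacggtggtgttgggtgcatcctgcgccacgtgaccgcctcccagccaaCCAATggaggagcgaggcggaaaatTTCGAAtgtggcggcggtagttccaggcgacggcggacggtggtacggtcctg
TOP2B start 1: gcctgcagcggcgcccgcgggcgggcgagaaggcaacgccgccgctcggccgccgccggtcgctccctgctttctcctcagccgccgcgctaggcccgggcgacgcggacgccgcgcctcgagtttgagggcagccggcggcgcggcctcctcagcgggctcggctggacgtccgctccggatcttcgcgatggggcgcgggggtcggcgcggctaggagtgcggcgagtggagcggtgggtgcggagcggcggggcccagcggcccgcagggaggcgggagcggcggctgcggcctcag
TOP2B start 2: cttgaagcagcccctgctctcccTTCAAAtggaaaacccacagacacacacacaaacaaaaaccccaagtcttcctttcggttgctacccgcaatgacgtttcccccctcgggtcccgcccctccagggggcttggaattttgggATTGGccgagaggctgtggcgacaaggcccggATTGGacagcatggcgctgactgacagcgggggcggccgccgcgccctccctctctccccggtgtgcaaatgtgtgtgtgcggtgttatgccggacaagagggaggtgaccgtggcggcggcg

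The TOP2A window holds 4 CCAAT boxes and 2 CHR matches. Its CCAAT box nearest the start begins at -53, in bases from the start, which is base 251 of the window. NCAPG has 1 CHR match, at -35. SGO1 has a CHR match at -3 and a CCAAT box at -28. Start 1 of TOP2B has neither, and start 2 has 2 CCAAT boxes and 1 CHR match, at -227. Windows were found for 9 of the 10 genes, 12 windows in all, and ESCO2 had none. A CHR match occurred in 8 of the 12 windows, against 16.4% of the 35116 windows of the whole table. A CCAAT box occurred in 5 of the 12, near the 34.6% of all windows, and 4 of the 12 had both, against 6.4%. The core of the E2F site, searched as GCGCGAAA, TTCCCGCC or TTTGGCGC, occurred in 0 of the 12 windows and in 4.2% of all windows. No motif searched overlaps another, and a match is a match of letters only.

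**Figure D1:**
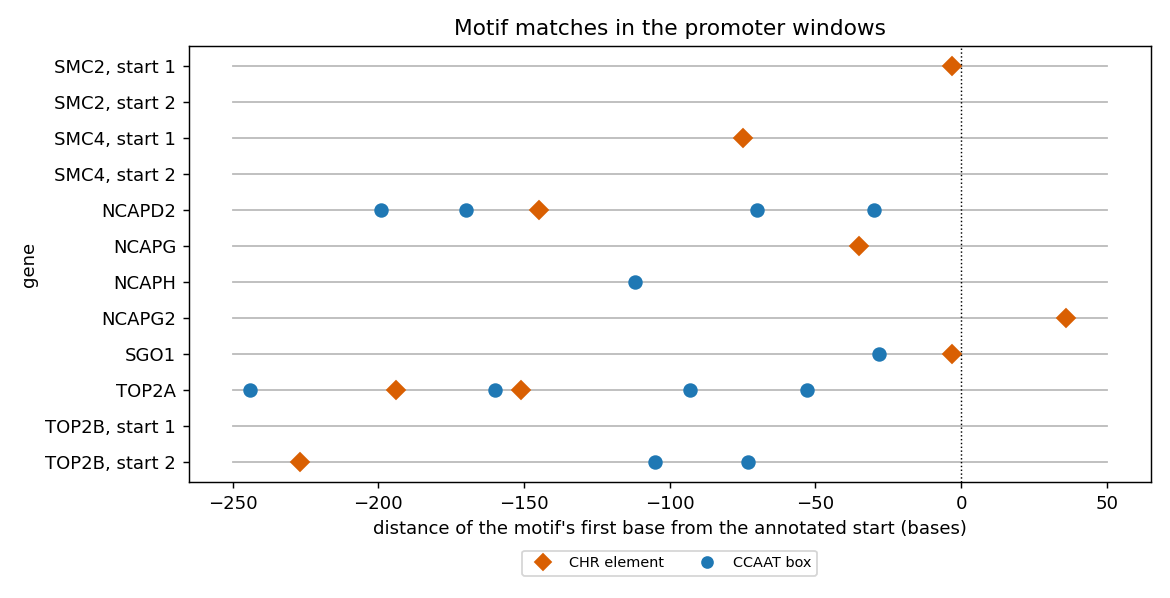
Positions of the CHR and CCAAT matches in the 12 promoter windows, 1 row per annotated start, with the distance of each motif's first base from the start in bases on the horizontal axis. NCAPD2 and TOP2A hold 4 CCAAT boxes each, and the second windows of SMC2 and SMC4 and the first of TOP2B hold no match; no E2F core was found.

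Over the 42 arrays TOP2B varied least, by 1.16 log2 units between its lowest and highest array, and 9.4% of all genes had a range as small or smaller. The ranges of the other members ran from 1.74 for SGO1 to 9.42 for ESCO2, each by its brightest probe set. The second brightest probe set of SGO1 ran from 0.21 to 6.67 and that of ESCO2 from 2.26 to 7.39. TOP2A spanned 6.01 units or 64.6-fold, NCAPG 6.46 and NCAPH 6.37. The lowest arrays of ESCO2 (-0.85), NCAPG (4.12) and NCAPH (2.02) lay under the dim limit, so their ranges have no exact size.

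**Figure D2:**
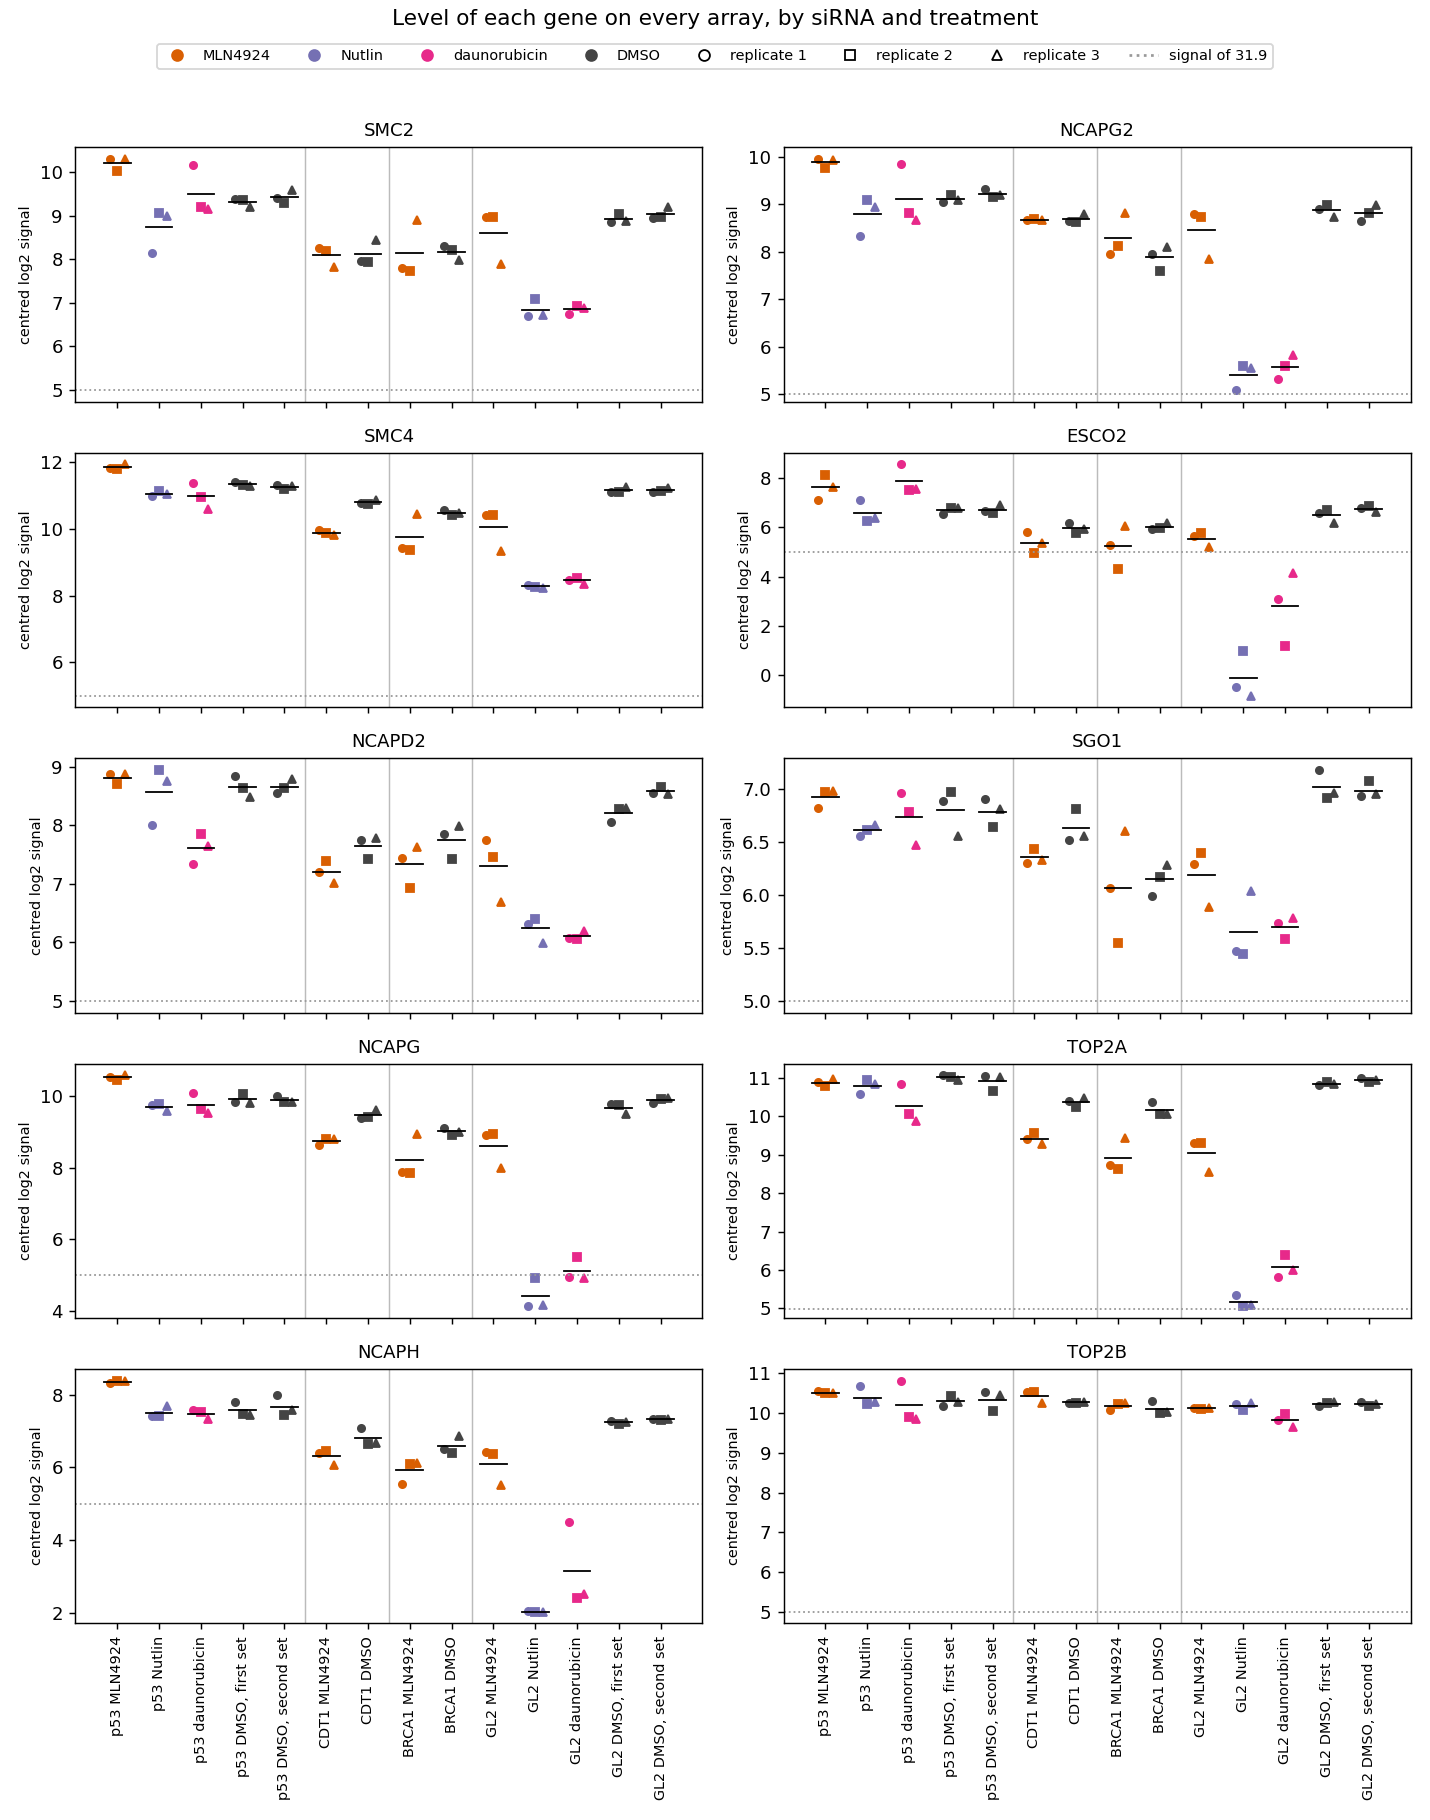
Level of each of the 10 genes on every array, as centred log2 signal on the vertical axis, with the 14 siRNA and treatment groups on the horizontal axis, points for arrays shaped by replicate number, black lines for group means and a dotted line at a signal of 31.9. In GL2 siRNA cells the Nutlin and daunorubicin arrays of every gene but TOP2B lie below all DMSO arrays, and TOP2B stays between 9.66 and 10.82 on all 42 arrays.

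Nutlin in GL2 siRNA cells lowered every member but TOP2B. Among these members with a Nutlin mean above the dim limit, TOP2A fell most, to just above that limit. SGO1 fell least by its brightest probe set, but not by its second brightest. Relative to the first GL2 DMSO set, 9 of 10 members were called lower and 0 higher (median -3.18), where 9.67% of all genes were called lower (median of all genes 0.01). At the deposited scaling the share of all genes was 7.4%, and the members called were again 9. CDKN1A, measured beside them, was 3.28 ± 0.17 higher. The 5′ to 3′ ratio of ACTB was 0.697 to 0.732 with Nutlin, against 0.806 to 0.886 with DMSO, and the summed signal of the 4 fibroblast markers was 473 to 529, against 358 to 405. The summed signal of the 7 melanocyte lineage markers was 2870 to 3540, against 1520 to 2270. Their part in the result was not tested.

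Among the condensin core subunits, SMC4 had 8.33, 8.25 and 8.24 on the Nutlin arrays, against 11.12, 11.11 and 11.25 in the first GL2 DMSO set. SMC2 had 6.69, 7.09 and 6.72, against 8.86, 9.04 and 8.87. In both genes every Nutlin array lay below every DMSO array. SMC4 fell by 2.88 ± 0.21 (limma adjusted p = 3.96e-12) and SMC2 fell by 2.09 ± 0.28 (limma adjusted p = 8.61e-07).

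Of the condensin I subunits, NCAPG, a HEAT-repeat subunit, had 4.12, 4.91 and 4.17 with Nutlin, against 9.76, 9.74 and 9.50 with DMSO. NCAPH, the kleisin that closes the ring, had 2.03, 2.02 and 2.02, against 7.28, 7.18 and 7.25. Their Nutlin levels lay under the dim limit, so the size of each change depends on the background signal. NCAPG fell by 5.27 ± 0.23 (limma adjusted p = 2.24e-17) and NCAPH fell by 5.21 ± 0.31. NCAPD2, the other HEAT-repeat subunit, had 6.32, 6.40 and 5.99, against 8.06, 8.28 and 8.30. It fell by 1.98 ± 0.22, which is 3.93-fold. The condensin II subunit NCAPG2 had 5.08, 5.59 and 5.54, against 8.90, 8.99 and 8.74, and fell by 3.47 ± 0.25.

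Of the cohesion regulators, ESCO2 had -0.49, 0.95 and -0.85 with Nutlin, against 6.60, 6.71 and 6.16 with DMSO. The Nutlin arrays were far under the dim limit, and the fitted change of -6.62 ± 0.49 carries no exact size. With the second brightest probe set of each gene, ESCO2 fell by 2.54 ± 0.40. SGO1 had 5.47, 5.44 and 6.03, against 7.18, 6.91 and 6.96, a fall of 1.37 ± 0.18 (limma adjusted p = 7.77e-07). Here the second brightest probe set gave more, a fall of 3.95 ± 0.43. The 2 brightest probe sets of each gene thus fell by different amounts.

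Of the topoisomerases, TOP2A had 5.34, 5.05 and 5.10 on the Nutlin arrays, against 10.80, 10.90 and 10.83 in the first GL2 DMSO set. It fell by 5.68 ± 0.21 (limma adjusted p = 3.22e-19), which is 51.3-fold, to just above the dim limit. TOP2B had 10.23, 10.09 and 10.25, against 10.17, 10.26 and 10.29, with overlapping groups. Its change was -0.05 ± 0.16 (limma adjusted p = 0.887, 95% interval -0.38 to 0.29 on 28 degrees of freedom).

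In the pathway list 17 of 26 genes were called lower and 0 higher (median -0.92), and 14 lower at the deposited scaling. The strongest were SGO2, the other shugoshin (-3.81 ± 0.20, dim with Nutlin), CDCA5, which encodes the cohesin stabiliser sororin (-3.69 ± 0.22), and ESPL1, which encodes the cohesin-cleaving protease separase (-3.36 ± 0.24).

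Daunorubicin in GL2 siRNA cells lowered every member but TOP2B as well, against the same first GL2 DMSO set that Nutlin was compared with. The largest fall was that of TOP2A, an enzyme the drug acts on, while TOP2B, the other, stood at the edge of the test. Called lower were 9 of 10 members and 0 were called higher (median -3.00), where 9.93% of all genes were called lower (median -0.01), or 6.84% at the deposited scaling. CDKN1A was 2.78 ± 0.17 higher in the same arrays. Here the ACTB ratio was 0.727 to 0.769, against 0.806 to 0.886, and the fibroblast sum 441 to 555, against 358 to 405. The melanocyte sum was 2300 to 2550, against 1520 to 2270, and the sum of the 4 epithelial markers 113 to 134, against 139 to 150, and their part in the result was not tested.

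TOP2A had 5.82, 6.39 and 5.99 with daunorubicin, against 10.80, 10.90 and 10.83 with DMSO. It fell by 4.78 ± 0.21 (limma adjusted p = 3.93e-17), which is 27.5-fold, with no overlap of the groups. TOP2B had 9.82, 9.97 and 9.66, against 10.17, 10.26 and 10.29. All 3 daunorubicin arrays lay below all 3 DMSO arrays, at a change of -0.43 ± 0.16, 1.34-fold (95% interval -0.76 to -0.09). It did not pass the test (limma adjusted p = 0.0584), and without the 3 doubted libraries, none of which is in these groups, the fit's smaller spread gave an adjusted p of 0.0052 for the same change, under the fold limit. At the deposited scaling the change was -0.25.

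In condensin, NCAPG had 4.94, 5.50 and 4.92, against 9.76, 9.74 and 9.50, and fell by 4.54 ± 0.23. NCAPH had 4.50, 2.40 and 2.51, against 7.28, 7.18 and 7.25, with replicate 1 well above the other 2 and all of them dim. NCAPG2 changed by -3.30 ± 0.25, SMC4 by -2.70 ± 0.21, NCAPD2 by -2.11 ± 0.22 and SMC2 by -2.08 ± 0.28, all called lower and each with every daunorubicin array below every DMSO array. Among the cohesion regulators, SGO1 fell by 1.32 ± 0.18 and ESCO2, dim and spread from 1.16 to 4.14, fell by 3.70 ± 0.49. Of the 26 pathway genes 20 were called lower and 0 higher (median -0.88), or 16 at the deposited scaling. They were led by SGO2 (-3.06 ± 0.20), ESPL1 (-3.45 ± 0.24) and CDCA5 (-2.91 ± 0.22).

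Set directly against Nutlin in GL2 siRNA cells, daunorubicin left 3 of 10 members higher and 0 lower (median 0.18), where 1.22% of all genes were called higher (median -0.02), or 1.82% at the deposited scaling. TOP2A was 0.90 ± 0.21 higher (5.82, 6.39 and 5.99, against 5.34, 5.05 and 5.10, limma adjusted p = 0.0114), but not with the mean of all its probe sets (0.19, adjusted p = 0.859). ESCO2 was 2.92 ± 0.49 higher and NCAPH 1.11 ± 0.31 higher, both dim under both drugs. With the second brightest probe set ESCO2 differed by 0.06 ± 0.40 and SGO1 was 1.55 ± 0.43 higher. NCAPH lost its call without daunorubicin replicate 1 (0.43) or any Nutlin array, and TOP2A without daunorubicin replicate 2 (0.74) or Nutlin replicate 2 or 3 (0.85 and 0.87). With only these groups in the fit, 0 members were called. NCAPG differed by 0.72 ± 0.23 (limma adjusted p = 0.097) and was called higher at the deposited scaling (0.77), with its second brightest probe set (1.06) and without the doubted libraries (0.72, adjusted p = 0.00208). SMC2, SMC4, NCAPD2, NCAPG2 and SGO1 differed by -0.13 to 0.18 and TOP2B by -0.38 ± 0.16 (limma adjusted p = 0.274).

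**Figure D3:**
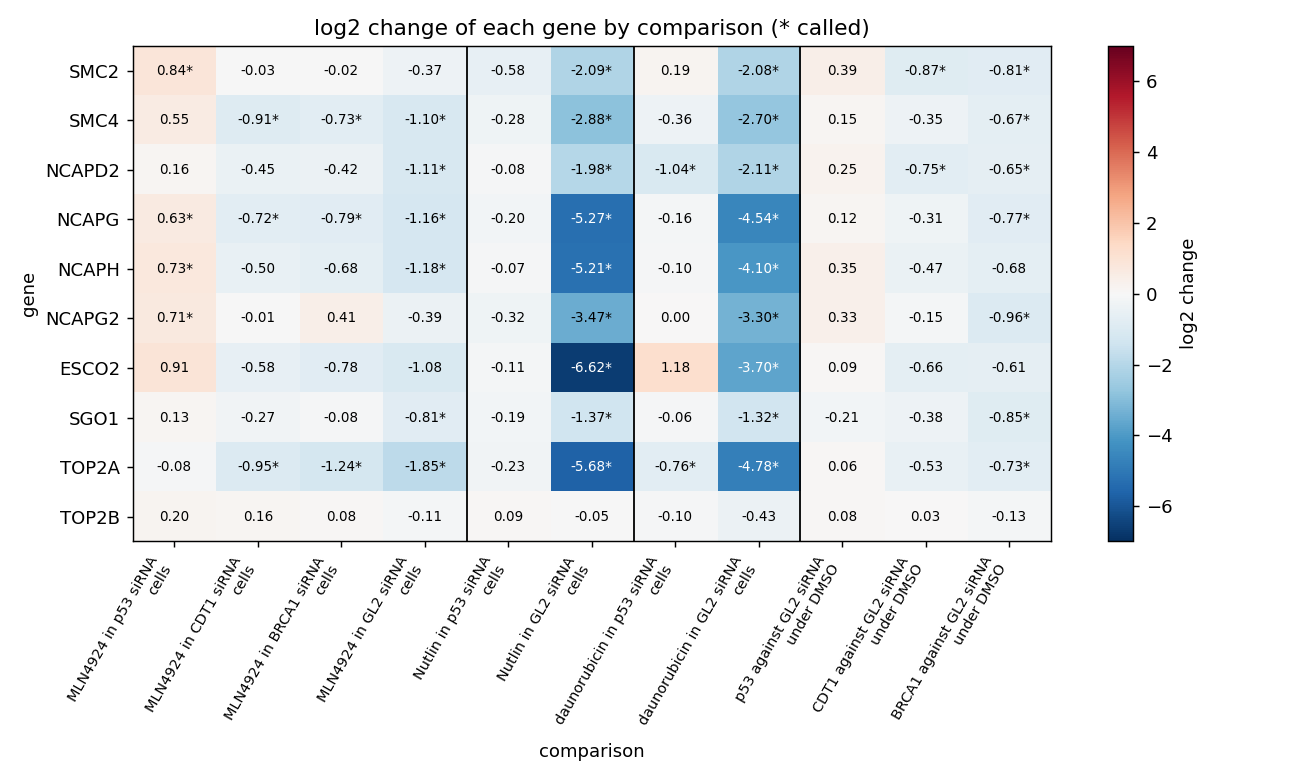
Heat map of the log2 change of each gene (rows) in 11 comparisons (columns), with red for higher, blue for lower and an asterisk for a called change. Nutlin and daunorubicin in GL2 cells give the deepest blue in 9 rows, from -1.32 to -6.62, while TOP2B ranges from -0.43 to 0.20 with no call.

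MLN4924 in GL2 siRNA cells lowered part of the set. TOP2A fell by 3.6-fold, SMC4, the condensin I subunits and SGO1 fell by 1.76- to 2.26-fold, and SMC2 and NCAPG2 were not called. Against both GL2 DMSO sets, 6 of 10 members were called lower and 0 higher (median -1.09), where 7.06% of all genes were called lower and 10.2% higher (median 0.08). At the deposited scaling these shares were 10.9% and 5.69%, and 7 members were called lower, ESCO2 joining the 6. CDKN1A was 2.57 ± 0.15 higher. The melanocyte sum was 502 to 678 with MLN4924, against 1520 to 2390 with DMSO, and its part in the result was not tested.

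TOP2A had 9.30, 9.31 and 8.54 with MLN4924, against 10.80 to 10.99 over the 6 DMSO arrays. It fell by 1.85 ± 0.18 (limma adjusted p = 2.00e-09), and by 1.59 without the doubted libraries. The lowest value was that of the library labelled replicate 3, which also held the lowest value of every other member except TOP2B. SMC4 had 10.41, 10.41 and 9.34, against 11.10 to 11.25, and fell by 1.10 ± 0.18, or by 0.75 without the doubted libraries. NCAPG fell by 1.16 ± 0.20, NCAPD2 by 1.11 ± 0.19, NCAPH by 1.18 ± 0.27 and SGO1 by 0.81 ± 0.16. Without the doubted libraries the falls were 0.85 for NCAPG, 0.80 for NCAPD2, 0.88 for NCAPH and 0.66 for SGO1, and all 6 calls remained.

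SMC2 had 8.96, 8.97 and 7.89, against 8.86 to 9.20 with DMSO, and NCAPG2 had 8.80, 8.74 and 7.84, against 8.65 to 8.99. Replicates 1 and 2 lay within the DMSO range in both genes. Their changes were -0.37 ± 0.24 for SMC2 and -0.39 ± 0.22 for NCAPG2 (limma adjusted p = 0.289 and 0.202). Without the doubted libraries they were -0.01 and -0.08. SMC2 was called lower with its second brightest probe set (-1.0, limma adjusted p = 1.94e-04) and with the mean of all probe sets (-0.67, adjusted p = 0.0152), so its call depends on the probe set. ESCO2 changed by -1.08 ± 0.42 (limma adjusted p = 0.0545) and TOP2B by -0.11 ± 0.14 (adjusted p = 0.621, 95% interval -0.40 to 0.18).

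In the pathway list 5 of 26 genes were called lower and 1 higher (median -0.14), with 2 lower and 1 higher without the doubted libraries. SGO2 (-1.82 ± 0.17), PTTG1, which encodes securin, the inhibitor of separase (-0.70 ± 0.12), and ESPL1 (-1.16 ± 0.21) were the strongest falls, and TOP1MT, the mitochondrial topoisomerase I, rose by 0.90 ± 0.14.

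The same drugs in p53 siRNA cells address how far these changes depend on p53. With Nutlin, limma called 0 of 10 (median -0.20), 1 at an unadjusted p under 0.05 (SMC2, -0.58 ± 0.28), and 0 with array weights, where 0.0556% of all genes were called either way (8 higher and 3 lower, or 15 and 2 at the deposited scaling, median -0.06). TOP2A had 10.59, 10.93 and 10.83 with Nutlin, against 11.07, 11.03 and 10.94 in the first p53 DMSO set. NCAPG had 9.75, 9.78 and 9.57, against 9.84, 10.05 and 9.81. Their changes were -0.23 ± 0.21 and -0.20 ± 0.23, and in both genes all Nutlin arrays lay below all DMSO arrays with means less than 1.5-fold apart. Replicate 1 with Nutlin had the lowest SMC2 (8.14, others 9.07 and 8.98), NCAPD2 (8.01, others 8.95 and 8.76) and NCAPG2 (8.33, others 9.10 and 8.95) of its group. CDKN1A was still 1.87 ± 0.17 higher with Nutlin in these cells. None of the 26 pathway genes was called by limma (0, with 0 at the deposited scaling).

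Daunorubicin in p53 siRNA cells lowered NCAPD2 and TOP2A. Called lower were 2 of 10 members and 0 higher (median -0.10), where 6.35% of all genes were called lower (median 0.01), or 4.97% at the deposited scaling. Without the doubted libraries the members' median was -0.35. NCAPD2 had 7.33, 7.85 and 7.65 with daunorubicin, against 8.84, 8.63 and 8.49 in the first p53 DMSO set. It fell by 1.04 ± 0.22 (limma adjusted p = 0.00108), and by 0.90 without the doubted libraries. TOP2A had 10.83, 10.05 and 9.88, against 11.07, 11.03 and 10.94. It fell by 0.76 ± 0.21 (limma adjusted p = 0.0098), by 1.05 without the doubted libraries, and missed the test without replicate 3 (-0.57, adjusted p = 0.07). Neither was called with only the groups compared in the fit. CDKN1A was 2.74 ± 0.17 higher with daunorubicin in these cells, beside 2.78 ± 0.17 in GL2 siRNA cells. Its daunorubicin change differed between the siRNAs by -0.04 ± 0.24 (limma adjusted p = 0.944). The melanocyte sum was 1390 to 1540 with daunorubicin, against 2040 to 2180 with DMSO, and the ACTB ratios of replicates 2 and 3 were 0.649 and 0.727, against 0.858 to 0.885. Their part in the result was not tested.

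The library of low 5′ to 3′ ratio, replicate 1, had the highest value of its group in every member but NCAPD2. ESCO2 had 8.57, 7.52 and 7.57, against 6.53, 6.80 and 6.79, and all 3 daunorubicin arrays lay above all DMSO arrays. Its change was 1.18 ± 0.49 (limma adjusted p = 0.0992) and 0.84 without the doubted libraries (adjusted p = 0.323), and with its second brightest probe set -0.16 ± 0.40. It was called higher with a pseudocount of 16 (1.08, limma adjusted p = 0.00229) and against both DMSO sets (1.17, adjusted p = 0.0421). TOP2B had 10.82, 9.91 and 9.85, against 10.19, 10.43 and 10.28. Its change was -0.10 ± 0.16 (limma adjusted p = 0.756) with that library. Without the doubted libraries it was -0.42 (adjusted p = 0.0212), beside -0.43 in GL2 siRNA cells, and under the fold limit. SMC4 changed by -0.36 ± 0.21, and by -0.56 without them (adjusted p = 2.37e-05), again under the limit.

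SMC2, NCAPG, NCAPH, NCAPG2 and SGO1 changed by -0.16 to 0.19 with daunorubicin in p53 siRNA cells and were not called, while the second brightest probe set of SMC2 was (0.67, limma adjusted p = 0.0398). Without replicate 1, the library of low 5′ to 3′ ratio, SMC2 changed by -0.14, NCAPG by -0.33 and NCAPG2 by -0.36, again not called. Among the pathway genes 6 of 26 were called lower and 1 higher (median -0.16). The falls included PTTG1 (-0.99 ± 0.14), HDAC8, the deacetylase that recycles cohesin (-0.74 ± 0.16), and SGO2 (-0.85 ± 0.20), and TOP3A, a type I topoisomerase, was 0.69 ± 0.22 higher but not called without the doubted libraries. Set directly against Nutlin in p53 siRNA cells, daunorubicin lowered NCAPD2 (7.33, 7.85 and 7.65, against 8.01, 8.95 and 8.76, by 0.96 ± 0.22). It was the 1 member of 10 called lower, 0 being called higher (median 0.01), where 4.44% of all genes were called lower (median 0.02). TOP2A changed by -0.53 ± 0.21 and was called without the doubted libraries (-0.82, limma adjusted p = 1.24e-04). SMC2 changed by 0.77 ± 0.28 and was called higher without daunorubicin replicate 2 or 3 or Nutlin replicate 2 (0.93, 0.95 and 0.94), and at the deposited scaling (0.71) or with its second brightest probe set (0.81). Without daunorubicin replicate 1, the library of low 5′ to 3′ ratio, SMC2 changed by 0.44 and was not called.

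With MLN4924 in p53 siRNA cells the calls hung on the scaling. Relative to the median gene, 4 of 10 members were called higher and 0 lower (median 0.59), where 17.8% of all genes were called higher and 7.6% lower (median 0.20). At the deposited scaling 0 members were called (median 0.17), and the shares of all genes were 5.33% higher and 17.4% lower. With quantile normalization 1 was called, TOP2A, lower (-0.59, limma adjusted p = 0.00105). The melanocyte sum was 417 to 517 with MLN4924, against 1870 to 2590 with DMSO. The epithelial sum was 93.4 to 132, against 164 to 228, and the fibroblast sum 312 to 372, against 382 to 572, and their part in the result was not tested.

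SMC2 had 10.30, 10.03 and 10.29 with MLN4924, against 9.19 to 9.59 over both p53 DMSO sets, a change of 0.84 ± 0.24 (limma adjusted p = 0.00639) that became 0.42 at the deposited scaling. With the second brightest probe set SMC2 (0.20, limma adjusted p = 0.475) and NCAPG (0.44, adjusted p = 0.101) were not called. NCAPG2 changed by 0.71 ± 0.22, NCAPH by 0.73 ± 0.27 and NCAPG by 0.63 ± 0.20. At the deposited scaling these were 0.30, 0.32 and 0.21. TOP2A had 10.88, 10.78 and 10.96, against 10.66 to 11.07, at -0.08 ± 0.18, and -0.50 (adjusted p = 0.00761) at the deposited scaling. NCAPH lost its call on leaving out any MLN4924 array or 1 of 3 DMSO arrays (0.68 to 0.75), and NCAPG without MLN4924 replicate 3 (0.60). The second brightest probe set of ESCO2 was 1.32 ± 0.35 higher, where the brightest changed by 0.91 ± 0.42. Among the pathway genes 11 of 26 were called higher and 0 lower (median 0.52), but 3 higher and 2 lower at the deposited scaling. CDCA5 (1.45 ± 0.19), TOP3A (1.40 ± 0.19) and TOP1MT (0.95 ± 0.14) were among those called higher relative to the median gene. CDKN1A changed by 0.54 ± 0.15 and was not called.

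The change itself was then compared between the siRNAs. For each drug, 9 of 10 members had a change that was called more positive in p53 than in GL2 siRNA cells and 0 more negative, at the deposited scaling too. The share of all genes called more positive was 6.96% for MLN4924 (3.3% at the deposited scaling), 5.3% for Nutlin and 9.65% for daunorubicin. TOP2B was the member not called. The comparisons share their DMSO arrays with those above, so they are no further evidence for the single changes.

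For Nutlin the members' median difference was 2.88 (median of all genes -0.03), from 1.17 ± 0.26 for SGO1 to 6.50 ± 0.69 for ESCO2, which was dim in GL2 cells. TOP2A differed by 5.45 ± 0.30 (limma adjusted p = 1.78e-14), as its change was -0.23 in p53 and -5.68 in GL2 siRNA cells. For daunorubicin the median was 2.82 (all genes 0.01), from 1.07 ± 0.31 for NCAPD2 to 4.87 ± 0.69 for ESCO2, with TOP2A at 4.02 ± 0.30. For MLN4924 the median was 1.46 (all genes 0.13), from 0.95 ± 0.22 for SGO1 to 2.00 ± 0.60 for ESCO2, with TOP2A at 1.76 ± 0.26. Without GL2 with MLN4924, replicate 3, SMC2 (0.85), NCAPG2 (0.79) and ESCO2 (1.83) lost their calls in the last, while without all 3 doubted libraries 9 were called. SMC2 (1.17) also lost its call without p53 siRNA with MLN4924, replicate 3, and ESCO2 without replicate 2 or 3 of that group (1.74 and 1.99). TOP2B differed by 0.14 ± 0.23, 0.32 ± 0.23 and 0.31 ± 0.20 for Nutlin, daunorubicin and MLN4924. The 95% intervals ran from -0.33 to 0.61, from -0.15 to 0.79 and from -0.10 to 0.72. In the pathway list 12, 15 and 14 of 26 genes were called more positive for the same drugs and 0 more negative, with CDCA5, ESPL1 and SGO2 called for each drug. The count for daunorubicin was 9 without the doubted libraries and that for MLN4924 was 9 at the deposited scaling.

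**Figure D4:**
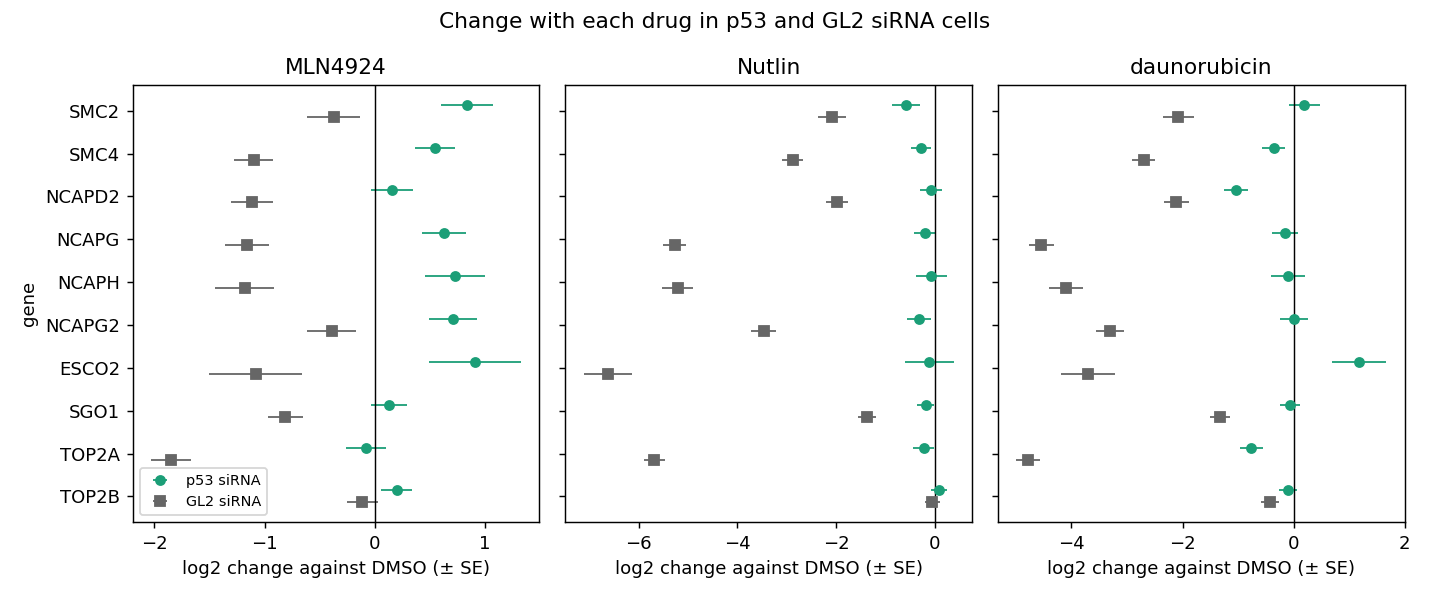
Log2 change of each gene against DMSO, with its standard error, in p53 (circles) and GL2 siRNA cells (squares) for the 3 drugs. The circles lie near 0 with Nutlin, between -0.58 and 0.09, where the squares reach -6.62, and those of NCAPD2 and TOP2A lie at -1.04 and -0.76 with daunorubicin.

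The siRNAs were also compared under DMSO, each against GL2. With p53 siRNA, limma called 0 members and 0 had an unadjusted p under 0.05 (0 with array weights, median 0.13), where 3.98% of all genes were called either way (1.71% higher and 2.27% lower, or 2.2% and 1.93% at the deposited scaling, median -0.01). The largest member change was 0.39 ± 0.20, for SMC2, beside a change in CDKN1A of -2.09 ± 0.12.

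BRCA1 siRNA lowered 7 of 10 members and raised 0 (median -0.71), where 4.37% of all genes were called lower (median -0.05). NCAPG2 had 7.95, 7.60 and 8.11 with BRCA1 siRNA, against 8.65 to 8.99 in both GL2 DMSO sets, and fell by 0.96 ± 0.22 (limma adjusted p = 0.00253). SGO1 had 5.99, 6.17 and 6.28, against 6.91 to 7.18, and fell by 0.85 ± 0.16 (limma adjusted p = 3.20e-04), a call its second brightest probe set did not give (-0.90, adjusted p = 0.11). TOP2A had 10.36, 10.06 and 10.07, against 10.80 to 10.99. It fell by 0.73 ± 0.18. SMC2 (-0.81 ± 0.24), NCAPG (-0.77 ± 0.20), SMC4 (-0.67 ± 0.18) and NCAPD2 (-0.65 ± 0.19) were called as well. Every array with BRCA1 siRNA lay below every GL2 DMSO array in these 7 genes, but also in NCAPH and, narrowly, ESCO2, which were not called. The share of all genes for which this holds was not computed. SMC2 lost its call without BRCA1 siRNA with DMSO, replicate 3 (-0.72). The count was 3 without replicate 2 of that group, where SMC2, SMC4, NCAPD2 and NCAPG lost theirs, and 4 with the first GL2 DMSO set alone. From the pathway list 3 of 26 genes were called lower and 0 higher (median -0.23), namely ESPL1 (-1.18 ± 0.21), SGO2 (-0.93 ± 0.17) and CDCA5 (-0.84 ± 0.19). CDKN1A was 1.86 ± 0.15 higher. The fibroblast sum was 827 to 969 with BRCA1 siRNA, against 358 to 411 with GL2 siRNA, and the epithelial sum was 255 to 268, against 134 to 150. Their part in the result was not tested.

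CDT1 siRNA lowered 2 of 10 members and raised 0 (median -0.42), where 3.58% of all genes were called lower (median -0.03). SMC2 had 7.97, 7.93 and 8.43 with CDT1 siRNA, against 8.86 to 9.20, and fell by 0.87 ± 0.24 (limma adjusted p = 0.0163). NCAPD2 had 7.75, 7.43 and 7.78, against 8.06 to 8.66, and fell by 0.75 ± 0.19 (limma adjusted p = 0.00801). Both lost the call with the first GL2 DMSO set alone or without CDT1 siRNA with DMSO, replicate 2, and SMC2 also without replicate 1. TOP2A changed by -0.53 ± 0.18 (limma adjusted p = 0.0504) and TOP2B by 0.03 ± 0.14. ESPL1 alone among the 26 pathway genes was called (-0.95 ± 0.21, median of the list -0.23), and CDKN1A was 1.41 ± 0.15 higher. The fibroblast sum was 757 to 777, against 358 to 411, and its part was not tested.

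TOP2A, SMC4 and NCAPG were the members called lower with MLN4924 in CDT1 siRNA cells, and also in BRCA1 siRNA cells, each against DMSO with the same siRNA. In CDT1 siRNA cells 3 of 10 were called lower and 0 higher (median -0.47), where 4.63% of all genes were called lower (6.19% at the deposited scaling, median 0.10). TOP2A had 9.41, 9.57 and 9.27 with MLN4924, against 10.40, 10.23 and 10.47, and fell by 0.95 ± 0.21 (limma adjusted p = 0.00147). SMC4 fell by 0.91 ± 0.21, and NCAPG by 0.72 ± 0.23, a call that leaving out any 1 of the 6 arrays ended. In BRCA1 siRNA cells 3 of 10 were called lower and 0 higher (median -0.55), where 7.15% of all genes were called lower (10% at the deposited scaling, median 0.16). TOP2A had 8.72, 8.62 and 9.43, against 10.36, 10.06 and 10.07, and fell by 1.24 ± 0.21, or by 1.49 without the doubted libraries. SMC4 (9.44, 9.37 and 10.46, against 10.57, 10.41 and 10.48) fell by 0.73 ± 0.21 and NCAPG by 0.79 ± 0.23. Without the doubted libraries these falls were 1.08 and 1.15. Without BRCA1 siRNA with MLN4924, replicate 1 or 2, only TOP2A of the 3 was called. The melanocyte sum was 735 to 858 with MLN4924 in CDT1 siRNA cells, against 2350 to 2640 with DMSO, and 598 to 860 in BRCA1 siRNA cells, against 2060 to 2300. The fibroblast sum in CDT1 siRNA cells was 541 to 619, against 757 to 777. In BRCA1 siRNA cells the fibroblast sum was 322 to 431, against 827 to 969, and the epithelial sum 90.3 to 158, against 255 to 268. The part of these sums in the result was not tested.

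SMC2 and NCAPG2 were not called with MLN4924 here either. SMC2 changed by -0.03 ± 0.28 in CDT1 and -0.02 ± 0.28 in BRCA1 siRNA cells, and NCAPG2 by -0.01 ± 0.25 and 0.41 ± 0.25. The BRCA1 siRNA values rest on replicate 3 with MLN4924, which goes against its label. Without it SMC2 changed by -0.40 and NCAPG2 by 0.15, again with no call. TOP2B changed by 0.16 ± 0.16 and 0.08 ± 0.16. In the pathway list 2 genes were called lower and 1 higher with CDT1 siRNA (median 0.05), and 1 lower and 1 higher with BRCA1 siRNA (median 0.06). SGO2 fell in both (by 1.39 ± 0.20 and 1.20 ± 0.20) and TOP1MT rose in both (0.71 ± 0.17 and 0.66 ± 0.17), with BRCA1 siRNA not called at the deposited scaling.

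limma called 0 members in the test of the MLN4924 change of CDT1 less GL2 siRNA cells (3 at an unadjusted p under 0.05, 1 with array weights, median 0.47), where 1.22% of all genes were called either way (0.521% higher and 0.698% lower, or 1.24% and 0.673% at the deposited scaling, median -0.02). TOP2A had the largest difference, 0.90 ± 0.28 (adjusted p = 0.107), called at 0.64 without the doubted libraries (adjusted p = 0.0308). Of BRCA1 less GL2 siRNA cells limma called 0 members (4 at an unadjusted p under 0.05, 0 with array weights, median 0.43), where 1.86% of all genes were called either way (median 0.04). Both groups of this last test hold a library that goes against its label. SGO1 differed by 0.73 ± 0.24 and was called without BRCA1 siRNA with MLN4924, replicate 2 (1.0). Without the doubted libraries the 10 differences lay between -0.39 and 0.31.

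By group mean, TOP2A was lowest with Nutlin in GL2 siRNA cells (5.16 ± 0.15, SD, n = 3), then with daunorubicin in GL2 siRNA cells (6.07 ± 0.30), and each stood clear of the next group. MLN4924 followed with BRCA1 (8.92 ± 0.44), GL2 (9.05 ± 0.44) and CDT1 siRNA (9.41 ± 0.15), whose arrays overlapped from 1 group to the next. The libraries numbered 3, which go against their labels, held the highest BRCA1 siRNA value (9.43) and the lowest GL2 siRNA value (8.54). Without these libraries the BRCA1 siRNA arrays lay below the GL2 siRNA arrays. BRCA1 siRNA with DMSO (10.17 ± 0.17), p53 siRNA with daunorubicin (10.25 ± 0.51) and CDT1 siRNA with DMSO (10.36 ± 0.12) overlapped in the same way. The other p53 siRNA groups and the GL2 DMSO sets, from 10.78 ± 0.17 to 11.01 ± 0.06, closed the order without a gap. TOP2B ran from 9.82 ± 0.15 with daunorubicin in GL2 siRNA cells to 10.52 ± 0.03 with MLN4924 in p53 siRNA cells. In these centred values only its lowest group stood clear of the next, and every other neighbouring pair overlapped. That gap was narrow, from 9.97 with daunorubicin in GL2 siRNA cells to 9.99 in BRCA1 siRNA with DMSO. Both ends of the TOP2B order depended on the scaling. At the deposited scaling MLN4924 in GL2 siRNA cells had the lowest mean (9.93), below daunorubicin (10.02). The highest there was Nutlin in p53 siRNA cells (10.58), with MLN4924 in p53 siRNA cells at 10.14.

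Across the 42 arrays, which share siRNA and treatment within groups, the 36 pairs of members other than TOP2B had a Pearson r of 0.78 to 0.98 (median 0.90), highest for NCAPG with TOP2A. The 9 pairs with TOP2B had 0.35 to 0.55. Among 9886 brighter genes, those most like TOP2A were NUF2 and ANLN (both 0.994) and CDCA8 (0.992), which encode a kinetochore protein, a cytokinesis scaffold and a subunit of the chromosomal passenger complex. Those most like NCAPG were CEP55 (0.994), NUSAP1 (0.993) and KIF18B (0.992), a midbody protein, a spindle protein and a mitotic kinesin. NCAPG2 was most like ATAD2 (0.985), PRIM1 (0.982) and POLE2 (0.979), the last 2 encoding subunits of the primase and of DNA polymerase epsilon, and SMC2 most like DONSON (0.985), a replication factor, and BARD1 (0.967). Those most like TOP2B reached only 0.795 (ADGRL2), 0.781 (DHX29) and 0.772 (ANKRD28). These are descriptions over all arrays.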

How the data were processed

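Gene expression was measured on 42 whole-genome Affymetrix arrays, 3 for each of 14 groups. The deposited values are signal intensity on a linear scale for 54675 probe sets, which the authors made, per the submitters' processing notes, in Affymetrix Expression Console (version not given in the sources used here). Every array has the same 2%-trimmed mean, 150.0, and 147 values are 0.

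Probe sets were named through the platform annotation, 41091 of them with 1 symbol, and each of 19775 genes was taken from its brightest such probe set. The log2 values were centred on each array's median gene. A single limma fit (version 3.58.1, R 4.3.3) of all groups, with 28 residual degrees of freedom and Benjamini-Hochberg adjustment over all genes, gave 18 comparisons, and the procedure was tested on simulated data. Nutlin and daunorubicin were compared with the first DMSO sets, and MLN4924 and the siRNAs with both sets together (6 arrays), except MLN4924 in CDT1 and BRCA1 siRNA cells, which was compared with DMSO under the same siRNA. Averaged over p53 and GL2 siRNA, no member was called between the DMSO sets (largest 0.19, lowest limma adjusted p 0.638). Within GL2 siRNA the first and second sets did not overlap in NCAPD2 (8.06 to 8.30 against 8.54 to 8.66). The same held for NCAPG (9.50 to 9.76 against 9.81 to 9.94) and NCAPH (7.18 to 7.28 against 7.31 to 7.34). Replicate numbers did not pair the samples: deviations of same-numbered arrays correlated by -0.142 to 0.07. The alternatives were other scalings, probe set choices, thresholds, controls and fits, and leaving out arrays.

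The genes named are all 10 members, up to 3 called genes of the pathway list per direction with the largest moderated statistic, and up to 3 genes most like a member, and the members and lists were chosen with earlier results of these data known. The p53 transcript was not analysed here.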

Additional observations from a re-analysis of the deposited data

Results flagged for a closer look

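In 27 cases the change with a drug differed between p53 and GL2 siRNA cells by limma's test of the difference itself, and each value is the log2 change in p53 less that in GL2 siRNA cells. With Nutlin the differences were 5.45 for TOP2A, 5.07 for NCAPG, 5.14 for NCAPH, 3.15 for NCAPG2, 2.61 for SMC4, 1.51 for SMC2, 1.90 for NCAPD2, 6.50 for ESCO2 and 1.17 for SGO1. With daunorubicin they were 4.02 for TOP2A, 4.39 for NCAPG, 4.0 for NCAPH, 3.30 for NCAPG2, 2.34 for SMC4, 2.27 for SMC2, 1.07 for NCAPD2, 4.87 for ESCO2 and 1.26 for SGO1. With MLN4924 they were 1.76 for TOP2A, 1.79 for NCAPG, 1.91 for NCAPH, 1.10 for NCAPG2, 1.65 for SMC4, 1.21 for SMC2, 1.26 for NCAPD2, 2.00 for ESCO2 and 0.95 for SGO1. NCAPH and ESCO2 with Nutlin and daunorubicin, and NCAPG with Nutlin, were dim in GL2 siRNA cells, so the sizes of those differences depend on background signal. All 9 daunorubicin values rest on a group that holds the library of low 5′ to 3′ ratio, and all 9 MLN4924 values on a group that holds a library going against its label. Without those libraries TOP2A differed by 3.73 with daunorubicin and 1.51 with MLN4924.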

How the results depend on the processing

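Of 2620 values of single genes under the alternatives other than leaving out 1 array, 2509 kept direction and side of the threshold, 55 lost and 56 gained a call, and 0 reversed. Of 1680 with 1 array left out, these counts were 1635, 39, 6 and 0. With the replicate number as a block the counts of members called were the same in all 18 comparisons, 9 with Nutlin and 6 with MLN4924 in GL2 siRNA cells for example, and it changed no count.

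Counts of members called that moved are given beside the count reported. For MLN4924 in p53 siRNA cells (4 reported, higher), the count was 0 at the deposited scaling, 1 in the opposite direction with quantile normalization, and 2 at an adjusted p under 0.01. For MLN4924 in BRCA1 siRNA cells (3), it was 1 at an adjusted p under 0.01 and 1 with only the groups compared. For daunorubicin in p53 siRNA cells (2), it was 0 with only the groups compared. For CDT1 siRNA (2), it was 1 at an adjusted p under 0.01 and 0 with the first DMSO sets alone. For BRCA1 siRNA (7), it was 4 under either of these. For daunorubicin against Nutlin in GL2 siRNA cells (3), it was 1 with a pseudocount of 16, with the mean of all probe sets or at an adjusted p under 0.01, and 0 with only the groups compared. For daunorubicin against Nutlin in p53 siRNA cells (1, lower), it was 3 at the deposited scaling, with quantile normalization or with the second brightest probe sets, 4 with the mean of all probe sets, 2 with array weights or without the doubted libraries, and 0 with only the groups compared. There it was also 3, mostly higher, with the pseudocount, without dim genes, or with limma's trend and robust options. For the MLN4924 difference of CDT1 less GL2 siRNA (0), it was 1 at the deposited scaling, with array weights, quantile normalization, or probe sets averaged per gene, or without the doubted libraries. For that of BRCA1 less GL2 siRNA (0), it was 1 with the mean of all probe sets. The causes were not tested.

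Leaving out 1 array at a time gave 2 to 4 for MLN4924 in p53, 1 to 3 in BRCA1 and 2 in CDT1 siRNA cells (3 reported). It gave 1 to 2 for daunorubicin in p53 siRNA cells, 0 to 2 for CDT1 and 3 to 7 for BRCA1 siRNA. Daunorubicin against Nutlin ranged from 1 to 3 in GL2 and from 1 to 2 in p53 siRNA cells, the MLN4924 difference of p53 less GL2 siRNA from 6 to 9, and that of BRCA1 less GL2 siRNA from 0 to 1.

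Over all genes, the 11 called with Nutlin in p53 siRNA cells became 177 with array weights, 742 with the second DMSO sets, 228 with both sets, 87 without the doubted libraries, 17 at the deposited scaling, 4 at an adjusted p under 0.01 and 1 with only the groups compared, and 4 to 32 with 1 array left out. With no fold minimum the calls were 5710, 3153 and 5029 for MLN4924 in GL2, CDT1 and BRCA1 siRNA cells, and 2036, 2397 and 2919 for p53, CDT1 and BRCA1 siRNA. With only the groups compared they were 51 for daunorubicin in p53 siRNA cells, 96 and 13 for daunorubicin against Nutlin in GL2 and p53 siRNA cells, 1260 for the daunorubicin difference and 380 for the CDT1 difference. p53 siRNA gave 346 with the first DMSO sets alone, and the MLN4924 difference of p53 less GL2 siRNA gave 1290. Without the doubted libraries, daunorubicin against Nutlin gave 700 in GL2 and 1410 in p53 siRNA cells, and the CDT1 and BRCA1 differences gave 658 and 624. With array weights, daunorubicin against Nutlin in GL2 siRNA cells gave 835, the Nutlin difference 3145, and the CDT1 and BRCA1 differences 966 and 697. At an adjusted p under 0.01, daunorubicin against Nutlin in GL2 siRNA cells gave 240, the MLN4924, Nutlin and daunorubicin differences of p53 less GL2 siRNA gave 1173, 1246 and 1935, and the CDT1 and BRCA1 differences 75 and 130. The CDT1 difference gave 378 at the deposited scaling and 159 with the mean of all probe sets. Changes of genes at or under a signal of 31.9 have no exact size.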
